A study of Rattus norvegicus with 78 samples.

Results

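The complement genes described here are C1qa, C1qb, C1qc, C3, C4a, C4b and Serping1, 7 of the 9662 genes that could be named on the array. They were chosen by symbol, by matching the RefSeq transcript of each array feature to the gene, and each of the 7 had exactly 1 feature. The study exposed rats of a selectively bred Low Responder line, which show little movement in a new environment, to paroxetine, a selective serotonin reuptake inhibitor, before and after birth. Mothers drank paroxetine at 10 mg per kg per day from before conception until weaning at postnatal day 21 (P21), and mothers of controls drank plain water. RNA from male offspring was measured on 78 single-colour NimbleGen arrays, from hippocampus and amygdala at P7, P14, P21 and P75, with 5 arrays in each of the 16 groups except the exposed P7 groups of both regions, which had 4. At P75 the exposed animals were adults that had been off the drug since weaning. All groups share the bred line and the sex. The labels do not say how many litters the pups came from or whether tissue was pooled, so p-values measure the spread between arrays, and pups of a litter would not be independent.

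Complement is a cascade of blood and tissue proteins that tags and clears cells and debris. C1q, built from the products of C1qa, C1qb and C1qc, starts the classical pathway. Activated C1 cleaves C4 (C4a and C4b in the rat), C4 and C2 then form the enzyme that cleaves C3, and C3 fragments tag surfaces for uptake by phagocytes. Serping1 encodes the C1 inhibitor, which blocks the proteases of the C1 complex. In the developing mouse brain C1q is made mostly by microglia, C4 by astrocytes among other cells, and C1q, C4 and C3 take part in the pruning of synapses.

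C4a and C4b are near-identical genes with 12 protein-coding genes between them on chromosome 20, in the major histocompatibility complex. Their features may therefore read each other's transcripts, and their values are not independent. Their promoters in RefSeq's GRCr8 assembly are shown because these genes changed together. Each window runs from 250 bases before to 50 bases after the annotated start. C4a lies at chr20:4010107-4010406 on the plus strand and C4b at chr20:4201729-4202028 on the plus strand. Over 295 aligned bases the windows were identical at 276, or 93.6%. Capitals mark GAGGAA, the core of sites bound by the myeloid factor PU.1, searched on both strands and present in 27.6% of 33469 rat promoters of this length. The letters occur in the C4b window, 229 bases before the start, and not in the C4a window.
C4a: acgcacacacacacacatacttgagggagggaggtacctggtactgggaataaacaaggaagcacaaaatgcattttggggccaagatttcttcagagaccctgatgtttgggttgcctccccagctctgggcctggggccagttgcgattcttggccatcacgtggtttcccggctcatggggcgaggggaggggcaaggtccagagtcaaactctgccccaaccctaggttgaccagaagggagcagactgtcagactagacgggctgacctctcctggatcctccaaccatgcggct
C4b: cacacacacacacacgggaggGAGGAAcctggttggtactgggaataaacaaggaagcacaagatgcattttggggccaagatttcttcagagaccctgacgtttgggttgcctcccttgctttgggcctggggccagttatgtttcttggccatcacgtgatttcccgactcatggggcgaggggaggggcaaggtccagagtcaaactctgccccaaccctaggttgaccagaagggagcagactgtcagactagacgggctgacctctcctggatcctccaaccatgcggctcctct

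C1qa, C1qc and C1qb lie side by side on chromosome 5 with no protein-coding gene between them. The promoters of C1qa, at chr5:154419884-154420183 on the minus strand, and of C1qb, at chr5:154407778-154408077 on the minus strand, are shown because these neighbours did not change together. They are written in the direction of transcription. In C1qa the capitals mark the STAT element TTCNNNGAA, present in 8.87% of promoters, at 90 bases before the start. In C1qb they mark GAGGAA at 247 bases before the start and its reverse complement at 90 bases before the start. The letters of C/EBP (TTGCNNAA) and CRE (TGACGTCA) sites, present in 10.6% and 1.83% of promoters, were in none of the 4 windows printed.
C1qa: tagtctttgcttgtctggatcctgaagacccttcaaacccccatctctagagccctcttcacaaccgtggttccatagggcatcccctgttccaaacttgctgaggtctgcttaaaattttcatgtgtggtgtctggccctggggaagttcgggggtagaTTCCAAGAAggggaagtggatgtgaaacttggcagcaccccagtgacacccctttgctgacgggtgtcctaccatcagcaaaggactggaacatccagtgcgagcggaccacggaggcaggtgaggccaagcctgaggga
C1qb: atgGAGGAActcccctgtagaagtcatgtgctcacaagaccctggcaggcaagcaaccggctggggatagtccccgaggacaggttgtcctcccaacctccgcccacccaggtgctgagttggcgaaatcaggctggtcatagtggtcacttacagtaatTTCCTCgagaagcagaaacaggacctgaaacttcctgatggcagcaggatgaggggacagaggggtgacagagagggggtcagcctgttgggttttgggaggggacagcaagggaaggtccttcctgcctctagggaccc

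Values are normalized intensities on a linear scale as the authors deposited them, and differences are log2 differences with their standard error from limma, with Benjamini-Hochberg adjustment over 26419 features and a threshold of 0.05. Within a group, pairs of arrays had correlations of 0.926 to 0.985, and array medians lay between 212.7 and 259.7. A random-sequence control probe, which should bind no transcript, read 42.86 to 57.2. It differed between exposed and control arrays in 7 of the 8 comparisons by an exact permutation test (adjusted p = 0.0127 to 0.0182), and not in the amygdala at P14 (adjusted p = 0.159). Its mean was 53.0 in exposed and 44.0 in control hippocampus at P7, 48.6 and 45.2 at P14, 47.6 and 55.2 at P21, and 49.0 and 56.3 at P75. In amygdala it was 44.6 in exposed and 48.9 in control arrays at P7, 46.1 and 47.2 at P14, 46.7 and 45.3 at P21, and 46.1 and 50.8 at P75. In hippocampus at P7, P21 and P75, and between control P75 and P7, the means lay apart by far more than the SD within groups. With the probe as a covariate, probe and group can hardly be told apart there. Of the 7 genes, C3 was the only one at or below this probe on any array, on 4 of 39 hippocampal and 10 of 39 amygdalar arrays. On principal components over all features, exposed arrays 1 and 2 of P7 hippocampus stood apart from arrays 3 and 4, control arrays 1 to 3 of P14 hippocampus from arrays 4 and 5, and exposed arrays 1 and 2 of P75 amygdala from arrays 3 to 5. Control array 5 of P14 amygdala scored 72.6 on the third component, against -20.4 to 14.8 for its group's other arrays. Control arrays 1 to 3 of P7 amygdala scored -14.1 to -10.1 on the second component, and arrays 4 and 5 scored -28.1 and -28.4. In hippocampus the component with the most variance (39.1%) also parted the control ages. Control arrays scored 47.5 to 101.6 at P7 and P14, and -61.2 to -52.6 at P21 and P75. Exposed hippocampal arrays of every age lay between, at -42.0 to 19.3. Of 8 genes listed as marks of each region only 2 were measured for each, and their sums did not follow the labels. The summed hippocampal marks, Wfs1 and Tdo2, averaged 464.2, 1346, 907.9 and 2178 in control hippocampus at P7, P14, P21 and P75, below the 1715, 2904, 5277 and 5506 of control amygdala. Those of the amygdala, Prkcd and Lhx9, averaged 1096, 1057, 967.1 and 844.1 in control hippocampus and 1165, 910.4, 922.5 and 998.7 in control amygdala. Tdo2 was dim, with only 2.38% of features dimmer in hippocampus and 8.71% in amygdala, so the hippocampal sum rests on Wfs1. The amygdalar sum joins 2 marks that disagreed. Prkcd followed the labels, with 57.2% of features dimmer in hippocampus and 74.8% in amygdala. Lhx9 ran the other way, with 73.2% and 48.4%. So few marks cannot test the labels, and results by region rest on the labels.

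The calls ran in opposite directions in the regions. All calls in hippocampus were higher in exposed animals, and all calls in amygdala were lower. In hippocampus 2 of the 7 genes passed at P7 (28.6%, against 53.4% of all features), 2 at P14 (28.6% against 38.2%), 2 at P21 (28.6% against 26.4%) and 3 at P75 (42.9% against 42.4%). In amygdala none passed at P7 (7.83% of all features did), 3 at P14 (42.9% against 35.8%), 4 at P21 (57.1% against 25.4%) and 2 at P75 (28.6% against 21.1%). Counted in either direction, these shares lay near or below that of all features except in the amygdala at P21. Of all features, 25.1% were higher and 28.3% lower in exposed hippocampus at P7, 16% higher and 22.2% lower at P14, 15.8% higher and 10.6% lower at P21, and 23.7% higher and 18.6% lower at P75. In exposed amygdala 5.66% were higher and 2.17% lower at P7, 16.5% higher and 19.3% lower at P14, 9.45% higher and 16% lower at P21, and 9.35% higher and 11.8% lower at P75. A single gene makes up 14.3% of the 7, so the results are those of single genes. The median difference of the 7 genes was 0.11 in hippocampus and -0.71 in amygdala at P21, where the median over all features was 0.04 and -0.07. The amygdalar median is the value of C3, which was at or below the random probe on 4 of the 5 exposed arrays.

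**Figure D1:**
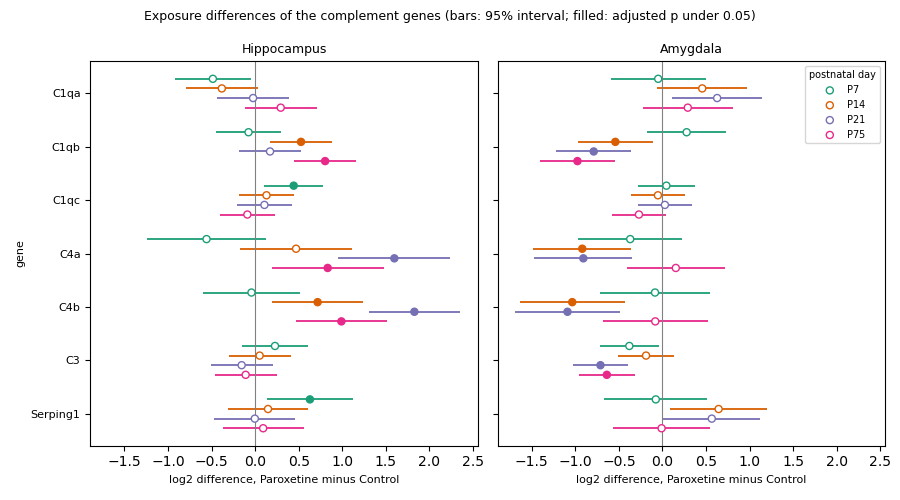
Log2 difference between exposed and control arrays for each gene (rows) in hippocampus and amygdala at P7, P14, P21 and P75 (colours), with 95% intervals; filled points have an adjusted p under 0.05. C4a and C4b lie right of 0 in hippocampus at P14, P21 and P75 and left of 0 in amygdala at P14 and P21, up to 1.83 for C4b in hippocampus and down to -1.09 in amygdala at P21.

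C4b showed the largest exposure difference among the 7 genes, in hippocampus at P21. Its intensity was 448, 462, 436, 476 and 368 on the exposed arrays, against 130.0, 123, 142, 113 and 109 on the control arrays. Every exposed array was above every control array, a separation seen for 22.0% of all features in this comparison. The difference was 1.83 ± 0.26 (adjusted p = 5.23e-06), or 3.55-fold, and 0.1% of features had a larger one.
C4a read 428, 444, 322, 476 and 538 on the exposed arrays, against 207, 146, 118, 145 and 120.1 on the control arrays. Again the groups did not overlap, with a difference of 1.60 ± 0.32 (adjusted p = 0.000339), or 3.03-fold. With the random probe as a covariate neither passed (C4b 0.68, adjusted p = 0.886, and C4a -0.33, adjusted p = 0.97). Probe and group can hardly be told apart in that fit. In the authors' deposited table for hippocampus at P21, C4b is listed as higher in exposed animals with an absolute fold of 3.55 and a corrected p of 0.000382; no other of the 7 genes is in any of their 8 tables. In tissue, fewer cells of a type and less RNA per cell cannot be told apart, here or in the results that follow.

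At P14 C4b was already higher in exposed hippocampus, with 529, 394, 383, 394 and 443 on exposed arrays, against 307, 181, 384, 222 and 245 on control arrays. The groups touched only narrowly, the lowest exposed value lying just under the highest control value, and the difference was 0.72 ± 0.26 (adjusted p = 0.0267). It lost its call without control array 2, 4 or 5 or exposed array 1 (adjusted p = 0.0523 to 0.0848). C4a read 413, 375, 552, 451 and 569 on exposed arrays and 432, 305, 421, 237 and 327 on control arrays, which overlapped, and its difference of 0.47 ± 0.32 did not pass (adjusted p = 0.251). Control arrays 1 to 3 and 4 to 5 stood apart from each other over all features at this age. The C4b difference was 0.62 against controls 1 to 3 only (adjusted p = 0.15) and 0.87 against controls 4 and 5 only (adjusted p = 0.0375).

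At P75, long after the drug had ended, C4b was 289, 215, 277, 293 and 344 in exposed hippocampus, against 241, 98.0, 122, 236 and 82.2 in controls. The exposed arrays were even, whereas controls were split between arrays 1 and 4, which reached the exposed range, and arrays 2, 3 and 5, which lay well below it. The difference was 0.99 ± 0.26 (adjusted p = 0.00221). C4a read 294, 328, 333, 352 and 264 in exposed animals and 327, 131, 207, 134 and 140.3 in controls, with only control array 1 in the exposed range. Its difference of 0.83 ± 0.32 (adjusted p = 0.0321) lost its call without any of 6 of the 10 arrays: control 2, 4 or 5, or exposed 2, 3 or 4 (adjusted p = 0.0537 to 0.0837). Both signs turned and neither gene passed with the random probe as a covariate (C4b -0.094, adjusted p = 0.968, and C4a -0.99, adjusted p = 0.6). The SD of the probe was 0.281 in exposed and 0.667 in control arrays, beside a mean difference of -7.29. Probe and group can hardly be told apart in that fit.

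At P7 neither gene passed in hippocampus, and the 4 exposed arrays disagreed. C4a read 96.0, 136, 566 and 598 on exposed arrays 1 to 4, against 387, 422, 336, 406 and 352 on control arrays. Exposed arrays 1 and 2 were below every control and arrays 3 and 4 above every control. C4b read 286, 121, 418 and 433 on exposed arrays, against 298, 309, 286, 317 and 243 on controls, with exposed array 2 below every control, array 1 within their range and arrays 3 and 4 above it. The C4a difference was -0.56 ± 0.34 (adjusted p = 0.161) over all 4 exposed arrays, -1.73 with exposed arrays 1 and 2 only, and 0.62 with arrays 3 and 4 only. This division was known from earlier results of these data and falls where the C4a values divide, so no test of the parts is given. It passed without exposed array 3 or 4 (-0.94 and -0.96, adjusted p = 0.0187 and 0.014). The same arrays parted over all features too: on the second principal component of the hippocampal arrays, exposed arrays 1 and 2 scored 11.2 and 11.6, and arrays 3 and 4 scored 58.1 and 57.3.

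**Figure D2:**
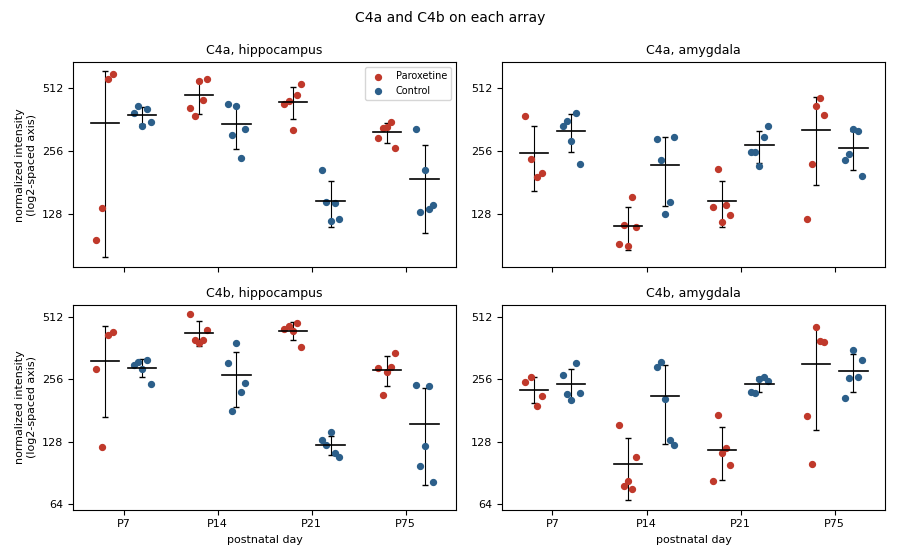
Normalized intensity (log2-spaced axis) of C4a and C4b on each array, by postnatal day, with exposed (red) left of control (blue); lines are group means and bars SD. In hippocampus at P21 the exposed C4b arrays lie between 367.7 and 476.0 and the control arrays between 108.8 and 142.3, while in amygdala at P14 and P21 the exposed means lie below those of controls.

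In control hippocampus both C4 genes fell with age. From P14 to P21 control ranges did not overlap: C4b read 108.8 to 142.3 at P21, against 181.0 to 383.7 at P14, and C4a read 117.8 to 206.9 at P21, against 237.2 to 431.6 at P14. Such a gap was seen for 35.5% of all features between these control groups. Between P75 and P7 C4a changed by -1.11 ± 0.32 (adjusted p = 0.00278) and C4b by -1.03 ± 0.26 (adjusted p = 0.000792). The random probe averaged 56.3 at P75 and 44.0 at P7 in these controls, and with it as a covariate the signs turned and neither gene passed (C4a 2.13, adjusted p = 0.456, and C4b 0.90, adjusted p = 0.755). Its SD was 0.667 at P75 and 0.381 at P7, so probe and age can hardly be told apart in that fit. In exposed hippocampus the P21 and P14 ranges overlapped for both genes (C4b 367.7 to 476.0 at P21 and 383.1 to 528.6 at P14). The hippocampal difference at P21 thus stands between an exposed group near the P14 level and a control group below it. Control arrays parted between these same ages over all features. In control hippocampus the mean summed intensity of astrocyte genes was 85530 at P14 and 44540 at P21. That of neuronal genes was 158500 and 98560, while that of oligodendrocyte genes rose from 32710 to 76840. Whether the C4 differences go beyond this array-wide change was not tested. The exposure difference varied with age for C4a (F test, adjusted p = 0.00119) and C4b (adjusted p = 0.000587), as it did for C1qb, in a test passed by 63.5% of features.

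In amygdala the C4 genes were lower in exposed animals at P14 and P21. At P21 C4b was 83.1, 172, 113, 119 and 99.0 on exposed arrays, against 223, 219, 258, 264 and 251 on control arrays. All exposed arrays were below all controls, as for 27.1% of features, and the difference was -1.09 ± 0.30 (adjusted p = 0.00608). C4a was 138, 209, 117, 142 and 127 on exposed arrays, against 252, 253, 218, 300.1 and 339 on control arrays. Its groups were also apart, exposed array 2 coming nearest, with a difference of -0.91 ± 0.28 (adjusted p = 0.0144).

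At P14 C4b was 154, 78.9, 82.5, 75.9 and 108 in exposed amygdala, against 293, 310.3, 205, 130.3 and 123 in controls. Control arrays 4 and 5 fell into the exposed range, and the difference was -1.04 ± 0.30 (adjusted p = 0.00612). C4a was 91.2, 113, 89.1, 154 and 111 on exposed arrays and 291, 233, 128, 146 and 299 on controls, where exposed array 4 overlapped control arrays 3 and 4. Its difference was -0.92 ± 0.28 (adjusted p = 0.00912). At P7 the C4a difference was -0.37 ± 0.29 (adjusted p = 0.458) and that of C4b -0.09 ± 0.31 (adjusted p = 0.898), with overlapping groups.

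At P75 the exposed amygdala split as the P7 hippocampus had. C4b was 169.8, 101, 457, 393 and 389 on exposed arrays 1 to 5, against 207, 259, 355, 263 and 315 on controls. Exposed arrays 1 and 2 lay below every control and arrays 3 to 5 above every control. C4a showed 120.2, 222, 421, 461 and 379 on exposed arrays, against 232, 248, 326, 319 and 194 on controls, with the same arrays low and high although array 2 fell within the control range. Over all 5 exposed arrays the differences were 0.15 ± 0.28 for C4a (adjusted p = 0.752) and -0.08 ± 0.30 for C4b (adjusted p = 0.884). With exposed arrays 1 and 2 only, C4b differed by -1.08, and with arrays 3 to 5 only by 0.58; this division was chosen after the values were seen, so no test of the parts is given. On the first principal component of the amygdalar arrays, exposed arrays 1 and 2 scored 67.1 and 65.5, and arrays 3 to 5 scored 11.2, 38.4 and -0.3.

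Set against each other, the hippocampal difference minus the amygdalar one was 2.92 ± 0.40 for C4b (adjusted p = 3.02e-08) and 2.51 ± 0.43 for C4a (adjusted p = 3.6e-06) at P21, where 37.6% of features passed. At P14 it was 1.75 ± 0.40 for C4b (adjusted p = 0.000414) and 1.39 ± 0.43 for C4a (adjusted p = 0.01), where 28.1% passed. At P75 only C4b passed of the C4 genes, at 1.07 ± 0.40 (adjusted p = 0.0287), where 36.9% of features passed. The P21 C4 calls between regions were lost with the random probe as a covariate (adjusted p = 0.129 for C4a and 0.166 for C4b), while those at P14 were kept and that of C4b at P75 was lost (adjusted p = 0.157). Probe ranges of exposed and control hippocampus did not overlap at P14 either, so the kept calls do not show that those differences hold.

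The C4 genes were the pair of members most alike across arrays. After each region's mean was removed, their log2 values correlated at 0.794 over 78 arrays, and at 0.497 after each group's mean was removed. The 2 features share their arrays, and whether they share probe sequence was not tested. Of the 4877 brighter genes compared, those most like C4a were RT1-CE15, a class I histocompatibility gene, at 0.809, Hcst, an adaptor of immune receptors, at 0.792, and Hsd3b1, a steroid dehydrogenase, at 0.774. C4b was most like C4a, Hsd3b1 at 0.772 and the histone gene H2ac1 at 0.765. Olfactory receptor genes were also among the 20 most like each, such as Or4a66b at 0.732 for C4a and Or2t44 at 0.747 for C4b. Of the 20 genes most like each, 3 for C4a and 4 for C4b were on chromosome 20, which holds 4.04% of the genes compared. The 4 for C4b include C4a itself, whereas C4b was not among the brighter genes compared with C4a.

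**Figure D3:**
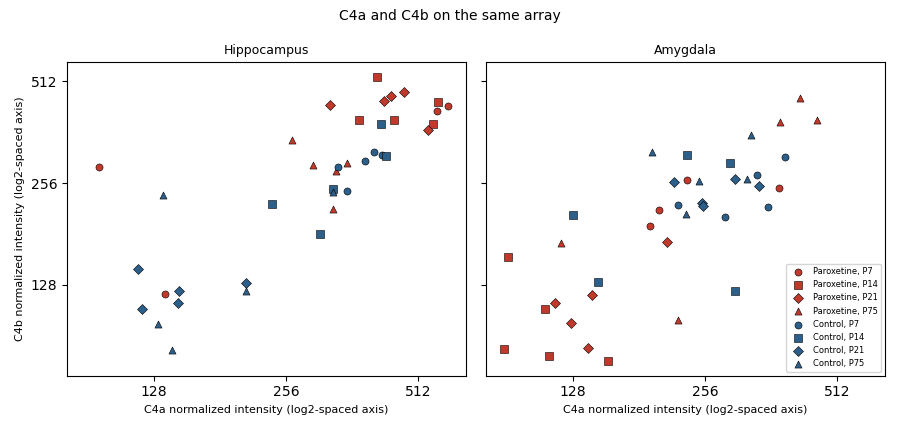
C4b against C4a normalized intensity on the same array (log2-spaced axes) in hippocampus and amygdala; red marks exposed and blue control arrays, and the shape marks the age. The genes rise and fall together over the arrays of each region (0.812 in hippocampus and 0.774 in amygdala), with exposed P21 arrays at the upper right in hippocampus and the lower left in amygdala.

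Of the C1q genes, C1qb passed in 5 of the 8 exposure comparisons, C1qc in 1 and C1qa in none. C1qb was higher in exposed hippocampus at P14 and P75 and lower in exposed amygdala at P14, P21 and P75. At P75 C1qb read 603, 357, 357, 496 and 381 in exposed hippocampus, against 227, 263, 285, 313 and 169.5 in controls. All exposed arrays were above all controls, as for 25.3% of features, with a difference of 0.80 ± 0.17 (adjusted p = 0.000297), which was 0.81 with the random probe as a covariate and did not pass (adjusted p = 0.432). Probe and group can hardly be told apart in the fit with that covariate. In amygdala at the same age C1qb read 301, 336, 223, 246 and 337 on exposed arrays, against 603, 407, 501, 634 and 706 on controls. Here all exposed arrays were below all controls, as for 12.7% of features, and the difference was -0.98 ± 0.21 (adjusted p = 0.000776). It was -0.82 with exposed arrays 1 and 2 only and -1.08 with arrays 3 to 5 only, a division chosen after the values were seen. The hippocampal minus the amygdalar difference was 1.78 ± 0.27 (adjusted p = 3.62e-07).

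At P21 C1qb was 249, 328, 229, 404 and 377 on exposed amygdala arrays, against 556, 536, 528, 441 and 629 on controls. The groups were apart, as for 27.1% of features, with a difference of -0.79 ± 0.21 (adjusted p = 0.00544). In hippocampus at P21 it was 298, 239, 261, 346 and 325 on exposed and 227, 300.1, 289.7, 242 and 242 on control arrays, which overlapped (0.17 ± 0.17, adjusted p = 0.503). The regions' differences differed by 0.96 ± 0.27 (adjusted p = 0.00387), a call lost with the random probe as a covariate (adjusted p = 0.39).

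At P14 C1qb was 252, 346, 436, 356 and 307 on exposed hippocampal arrays, against 205, 290.5, 184, 254 and 241 on controls. The groups overlapped in part, and the difference was 0.53 ± 0.17 (adjusted p = 0.0153), lost without control array 3 or exposed array 3 (adjusted p = 0.0511 and 0.0609). It was 0.59 against controls 1 to 3 only (adjusted p = 0.0323) and 0.43 against controls 4 and 5 only (adjusted p = 0.125). In amygdala at P14 C1qb was 398, 229, 313, 468 and 352 on exposed arrays, against 538, 639, 413, 621 and 347 on controls. The groups overlapped, and the difference of -0.54 ± 0.21 (adjusted p = 0.0433) was lost without any of 6 of the 10 arrays: control 1, 2 or 4, or exposed 2, 3 or 5 (adjusted p = 0.0607 to 0.16). The difference between regions was 1.07 ± 0.27 (adjusted p = 0.00172). At P7 C1qb differed by -0.08 ± 0.18 in hippocampus (adjusted p = 0.748) and 0.28 ± 0.22 in amygdala (adjusted p = 0.465). The exposure difference of C1qb varied with age in hippocampus (F test, adjusted p = 0.0128) and in amygdala (adjusted p = 0.00912, in a test passed by 32.7% of features).

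C1qa, which encodes another chain of the same protein, passed in none of the 8 exposure comparisons. In amygdala its differences at P14, P21 and P75 had the opposite sign to those of C1qb. At P21 C1qa read 684, 788, 642, 653 and 547 on exposed arrays, against 375, 366, 473, 543 and 397 on controls. All exposed arrays were above all controls, where 27.1% of features had groups apart, yet the difference of 0.63 ± 0.25 missed the threshold (adjusted p = 0.0648). At P14 C1qa read 489, 489, 503, 577 and 634 on exposed arrays and 393, 482, 411, 415 and 279.7 on controls. These groups were also apart, as for 22.3% of features, with a difference of 0.46 ± 0.25 (adjusted p = 0.16). In hippocampus at P14 the difference was -0.38 ± 0.20 (adjusted p = 0.137), which passed without control array 4 (-0.52, adjusted p = 0.0487), and the regions' differences differed by -0.84 ± 0.33 (adjusted p = 0.0466), a call lost with the random probe as a covariate (adjusted p = 0.683).

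Over the ages P7, P14, P21 and P75, hippocampal C1qa averaged 214 ± 77.3, 247 ± 42.3, 255 ± 13.6 and 367 ± 56.7 in exposed animals, against 288 ± 46.6, 327 ± 85.0, 267 ± 75.2 and 305 ± 77.1 in controls (SD, n = 5, and 4 for exposed P7). In amygdala it averaged 291 ± 127, 538 ± 64.8, 663 ± 86.7 and 681 ± 129 in exposed animals, against 289.6 ± 102, 396 ± 73.5, 431 ± 75.5 and 559 ± 124 in controls. The exposed P7 hippocampal arrays again parted, with 166, 137, 308 and 245 on arrays 1 to 4, so that the difference of -0.49 ± 0.22 (adjusted p = 0.0559) passed without exposed array 3 or 4 or control array 5 (adjusted p = 0.0101, 0.0399 and 0.0307).

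C1qc, the remaining chain, rose in exposed hippocampus at P7, where it read 892, 659, 653 and 439.7 on exposed arrays, against 522, 477, 365, 555 and 463 on controls. Exposed arrays 1 to 3 were above every control and array 4 was within their range. The difference of 0.44 ± 0.17 (adjusted p = 0.0242) was lost without exposed array 1 or control array 3 (adjusted p = 0.166 and 0.0853). It was 0.70 with exposed arrays 1 and 2 only and 0.18 with arrays 3 and 4 only, a division known from earlier results, so the parts were not tested. With the random probe as a covariate, which can hardly be told apart from the groups here, the sign turned (-0.39, adjusted p = 0.735). From P7 to P75 hippocampal C1qc averaged 661 ± 185, 712 ± 25.4, 781 ± 107 and 849.9 ± 189 in exposed animals, against 476 ± 72.1, 655 ± 88.4, 726 ± 102 and 893 ± 121 in controls. In amygdala it averaged 681 ± 62.9, 859.5 ± 127, 978 ± 111 and 858 ± 159 in exposed animals, against 677 ± 181, 891 ± 135, 958 ± 92.1 and 1029 ± 143 in controls. It passed in no other exposure comparison: outside P7 its hippocampal differences were between -0.09 and 0.13, and the amygdalar ones between -0.27 and 0.05.

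The C1q genes, apart from C1qa in hippocampus, rose with age in controls. In amygdala at P75 against P7, C1qa changed by 1.02 ± 0.25 (adjusted p = 0.0025), C1qb by 1.05 ± 0.21 (adjusted p = 0.000244) and C1qc by 0.63 ± 0.15 (adjusted p = 0.0016), 4 of the 7 genes passing with C3 and all 4 higher (57.1%, against 25.4% of all features, 13.8% higher and 11.6% lower). The C1qa and C1qb ranges at P75 and P7 did not overlap there, as for 16.3% of features. In hippocampus C1qc changed by 0.91 ± 0.16 (adjusted p = 5.25e-06) and C1qb by 0.61 ± 0.17 (adjusted p = 0.00286), while C1qa did not pass (0.06 ± 0.20, adjusted p = 0.811). Neither hippocampal call was kept with the random probe as a covariate (C1qc -0.20, adjusted p = 0.923, and C1qb 0.59, adjusted p = 0.772). Probe and control age can hardly be told apart in that fit. Without the covariate 6 of the 7 genes passed in hippocampus, 4 higher and 2 lower, or 85.7%, against 59.8% of all features, 29.4% higher and 30.4% lower. Whether the change with age differed between regions was not tested.

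Listed microglial genes, of which 13 of 18 were measured (without Tmem119, Trem2 and Sall1), also rose with age in controls, 7 of 13 in hippocampus and 8 of 13 in amygdala, with none lower. Of all features, 29.4% were higher and 30.4% lower in hippocampus, and 13.8% and 11.6% in amygdala. The summed intensity of the microglial genes in control amygdala was 6389 to 7597 at P75 and 3104 to 4659 at P7, and in control hippocampus 5113 to 5800 at P75 and 3341 to 3585 at P7. Their part in the rise of the C1q genes was not tested. Under exposure the microglial sum ran the same way as C1qb in some comparisons and the other way in others. In hippocampus at P75, where C1qb was higher, the sum was 5504 to 6271 in exposed and 5113 to 5800 in control arrays. At P14, where C1qb was also higher, it was 3681 to 4494 in exposed and 4497 to 5429 in control hippocampus. In amygdala, where C1qb was lower at P14, P21 and P75, it was 5429 to 6377 in exposed and 4632 to 5599 in control arrays at P14, 7650 to 8449 and 6638 to 8290 at P21, and 7690 to 9916 and 6389 to 7597 at P75.

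Across arrays the C1q genes correlated less than the C4 genes did: 0.518 for C1qb and C1qc, 0.305 for C1qa and C1qc and 0.119 for C1qa and C1qb over 78 arrays with region means removed. Within groups these values were 0.244, 0.031 and -0.008. The genes most like C1qb were Rogdi at 0.769, Ensa at 0.75 and RT1-DMa, part of the class II peptide-loading machinery, at 0.747. Those most like C1qc were the circadian clock genes Nr1d1 and Dbp, both at 0.686, and those most like C1qa were Kchip2 at 0.633 and the prion protein gene Prnp at 0.623.

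**Figure D4:**
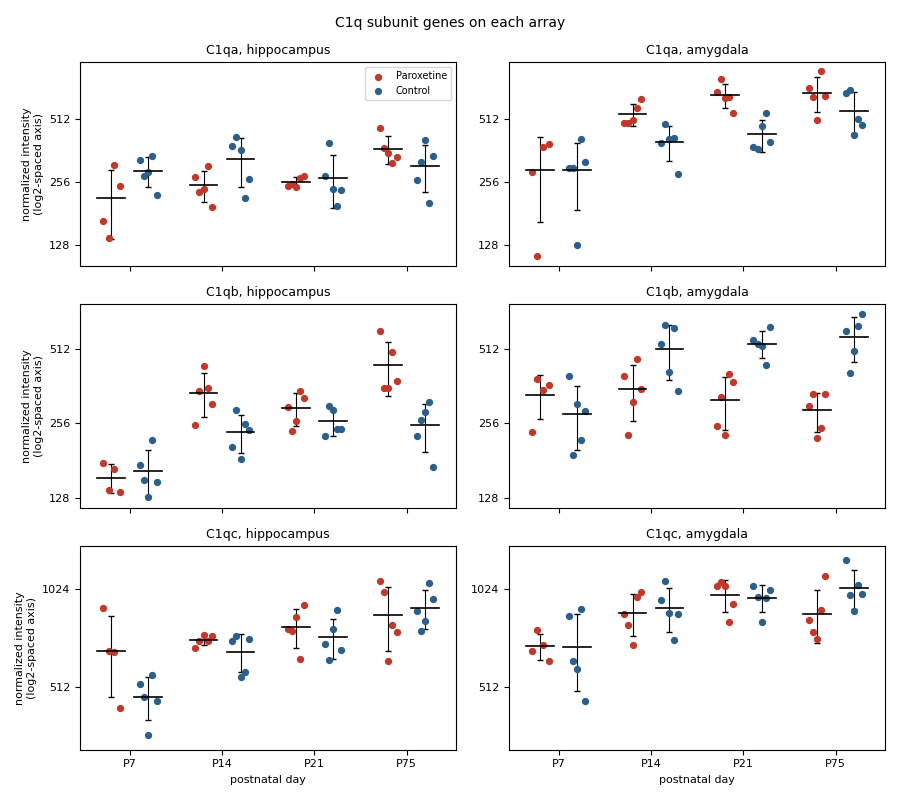
Normalized intensity (log2-spaced axis) of C1qa, C1qb and C1qc on each array, by postnatal day, with exposed (red) left of control (blue); lines are group means and bars SD. In amygdala the exposed C1qb arrays at P75 lie between 223.3 and 336.9 and the controls between 407.2 and 706.1, while the exposed C1qa means lie above those of controls at P14, P21 and P75.

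C3, the component on which the pathways converge, was dim. It fell in exposed amygdala at P21 and P75. At P21 it read 43.6, 45.9, 43.0, 48.1 and 42.1 on exposed arrays, against 72.3, 94.3, 73.0, 64.5 and 63.9 on controls. The groups were apart, as for 27.1% of features, and 4 of the 5 exposed arrays were at or below the random probe. The difference was -0.71 ± 0.16 (adjusted p = 0.000922), with the exposed arrays near the level of the probe. At P75 C3 read 51.9, 57.8, 63.5, 62.6 and 66.4 on exposed arrays, against 99.6, 98.8, 103, 91.8 and 77.5 on controls. Every array here was above the random probe, the groups were apart, as for 12.7% of features, and the difference was -0.64 ± 0.16 (adjusted p = 0.00279). It was -0.78 with exposed arrays 1 and 2 only and -0.55 with arrays 3 to 5 only. That division was chosen after the values were seen, so no test of the parts is given.

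Over P7, P14, P21 and P75 hippocampal C3 averaged 61.1 ± 5.12, 65.7 ± 10.8, 67.9 ± 9.11 and 67.0 ± 21.1 in exposed animals, against 52.9 ± 10.5, 63.2 ± 7.97, 75.7 ± 11.4 and 71.2 ± 17.7 in controls. None of these differences passed (adjusted p = 0.313, 0.85, 0.555 and 0.653). In amygdala C3 averaged 46.2 ± 6.08, 49.5 ± 7.49, 44.6 ± 2.45 and 60.4 ± 5.69 in exposed animals, against 61.2 ± 14.7, 57.4 ± 14.0, 73.6 ± 12.3 and 94.2 ± 10.2 in controls. At P7 the hippocampal minus the amygdalar difference of C3 was 0.61 ± 0.25 (adjusted p = 0.0373), the only one of the 7 genes to pass there (14.3%, against 49.4% of all features), and it did not pass after quantile normalization (0.32, adjusted p = 0.325). In controls C3 rose between P75 and P7 in amygdala (0.65 ± 0.16, adjusted p = 0.0019) and in hippocampus (0.42 ± 0.18, adjusted p = 0.0404). In hippocampus C3 was at or below the random probe on 2 of 5 arrays at P75 and on 1 of 5 at P7, and the probe itself averaged 56.3 at P75 and 44.0 at P7. The hippocampal call was lost after quantile normalization (0.19, adjusted p = 0.389), with the random probe as a covariate (adjusted p = 0.788) and without control P7 array 1, 3 or 5 or control P75 array 1, 2 or 5 (adjusted p = 0.0518 to 0.136).

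Serping1 passed in 1 of the 8 exposure comparisons, as higher in hippocampus at P7. A change of its exposure difference with age did not pass the F test in hippocampus (adjusted p = 0.315) or amygdala (adjusted p = 0.265). It read 301, 196, 154 and 140.0 on exposed arrays, against 186, 89.9, 94.2, 112 and 155 on controls. Exposed arrays 1 and 2 were above every control and arrays 3 and 4 within the control range. The difference of 0.63 ± 0.24 (adjusted p = 0.0283) was lost without exposed array 1 or 2 or control array 2, 3 or 4 (adjusted p = 0.0539 to 0.179). It was 0.99 with exposed arrays 1 and 2 only and 0.27 with arrays 3 and 4 only, and the parts of this known division were not tested. With the random probe as a covariate, hardly separable from the groups here, its sign turned (-1.37, adjusted p = 0.284).

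Over the 4 ages hippocampal Serping1 averaged 198 ± 72.9, 140.3 ± 18.5, 198 ± 40.7 and 204 ± 73.6 in exposed animals, against 127 ± 41.5, 128 ± 25.3, 197 ± 26.6 and 189 ± 50.4 in controls. In amygdala it averaged 131 ± 16.7, 148 ± 44.6, 152 ± 34.4 and 185 ± 84.3 in exposed animals, against 140.3 ± 33.4, 94.8 ± 25.4, 108 ± 44.5 and 175 ± 38.5 in controls. The amygdalar differences at P14 and P21 were 0.64 ± 0.27 (adjusted p = 0.0637) and 0.57 ± 0.27 (adjusted p = 0.128), and the P14 one passed without control array 1 or exposed array 5 (adjusted p = 0.0438 and 0.0418). In control hippocampus Serping1 rose between P75 and P7 (0.58 ± 0.23, adjusted p = 0.0292), a call lost without P7 array 2, 3 or 4 or P75 array 1, 3 or 4 (adjusted p = 0.0566 to 0.0962) and turned in sign with the random probe as a covariate (-2.09, adjusted p = 0.258). Probe and control age can hardly be told apart in the fit with that covariate. The genes most like Serping1 were Tmem54 at 0.541 and Or10d4c at 0.527, and those most like C3 were Mettl7a at 0.601 and Pkig at 0.566.

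**Figure D5:**
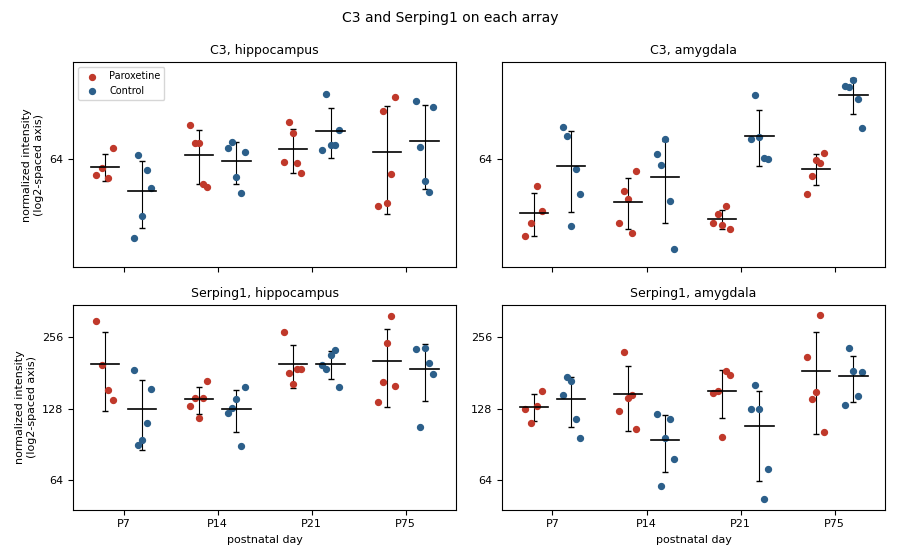
Normalized intensity (log2-spaced axis) of C3 and Serping1 on each array, by postnatal day, with exposed (red) left of control (blue); lines are group means and bars SD. In amygdala the exposed C3 arrays lie between 42.05 and 48.11 at P21 and between 51.90 and 66.39 at P75, below the controls at 63.94 to 94.34 and 77.47 to 103.3.

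Ranked by mean, the 8 groups of a region formed no steps for any of the 7 genes: every group's range overlapped that of the next group in order. C4b was highest in exposed P21 and lowest in control P21 hippocampus, while in amygdala it was highest in exposed P75 and lowest in exposed P14. C1qb was highest in exposed P75 hippocampus and in control P75 amygdala.

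Of 49 other complement genes listed, 32 were measured, and they changed both ways in most comparisons. In hippocampus 9 were higher and 4 lower at P7, 4 and 3 at P14, 3 and 3 at P21, and 5 and 10 at P75. Of all features, 25.1% were higher and 28.3% lower there at P7, and 16% and 22.2% at P14. The shares were 15.8% and 10.6% at P21, and 23.7% and 18.6% at P75. In amygdala 2 were higher and none lower at P7, 6 and 8 at P14, 5 and 6 at P21, and 1 and 4 at P75. Of all features, 5.66% were higher and 2.17% lower there at P7, and 16.5% and 19.3% at P14. The shares were 9.45% and 16% at P21, and 9.35% and 11.8% at P75. The median differences of the 32 genes lay between -0.12 and 0.22, and the medians over all features between -0.07 and 0.08.

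Among the starting proteases and their partners, C1rl, a relative of the C1r protease, was higher in exposed hippocampus at P7 (0.79 ± 0.20, adjusted p = 0.00132) and P14 (1.07 ± 0.19, adjusted p = 3.17e-05) and lower at P21 (-0.91 ± 0.19, adjusted p = 0.000676) and P75 (-0.87 ± 0.19, adjusted p = 0.000385). Cfi, the protease that cleaves C3b and C4b, was higher in exposed hippocampus at P7 (1.67 ± 0.25, adjusted p = 4.39e-07) and P14 (0.79 ± 0.23, adjusted p = 0.0067) and lower at P75 (-1.35 ± 0.23, adjusted p = 1.41e-05). In each of these comparisons the random probe differed in the same direction. Masp2, a lectin pathway protease that cleaves C4 and C2, was lower in exposed amygdala at P14 (-0.86 ± 0.19, adjusted p = 0.000419), P21 (-0.58 ± 0.19, adjusted p = 0.0191) and P75 (-0.76 ± 0.19, adjusted p = 0.0028).

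Of 12 measured regulators of complement, 1 rose and none fell in exposed amygdala at P7, 5 fell and 1 rose at P14 (against 19.3% of all features lower and 16.5% higher), 4 fell and 1 rose at P21 (16% lower and 9.45% higher), and 2 fell and none rose at P75 (11.8% lower and 9.35% higher). Cd59b, an inhibitor of the membrane attack complex, changed by -0.85 ± 0.12, adjusted p = 8.55e-07 at P14 and -0.93 ± 0.12, adjusted p = 7.48e-07 at P21. In hippocampus 3 regulators rose and 1 fell at both P21 and P75. Of all features there, 15.8% were higher and 10.6% lower at P21, and 23.7% and 18.6% at P75. Clu, which inhibits the terminal complex, was higher in exposed animals at P21 (0.45 ± 0.09, adjusted p = 0.000562) and P75 (0.60 ± 0.09, adjusted p = 3.22e-06). In control hippocampus, Clu also rose between P75 and P7 (1.71 ± 0.09, adjusted p = 6.36e-18). The authors' deposited tables list Cd59b as lower in amygdala at P21, with an absolute fold of 1.91, and Clu as higher in hippocampus at P75, with an absolute fold of 1.51.

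Marker genes of whole cell classes moved with many of these comparisons. Of 8 measured genes of meninges and fibroblasts (without Col1a1 and Ogn), the summed intensity ran the same way as the C4 genes where these were called at P21 in both regions, at P75 in hippocampus and at P14 in amygdala. In hippocampus the sum was 4130 to 4888 in exposed and 3019 to 3579 in control arrays at P21, and 3661 to 4148 and 2858 to 3402 at P75. In amygdala it was 1366 to 1645 in exposed and 2213 to 3006 in control arrays at P14, and 2271 to 2339 and 2550 to 3016 at P21. Few of these genes passed singly: 1 rose in hippocampus at each of P21 and P75, while in amygdala 3 fell and 1 rose at P14 and 1 fell at P21. Of all features, 15.8% were higher in hippocampus at P21 and 23.7% at P75. In amygdala 19.3% were lower and 16.5% higher at P14, and 16% were lower at P21. In hippocampus at P14, where C4b was higher, the sums overlapped, at 3955 to 4197 in exposed and 3330 to 4467 in control arrays. The sum was also higher in exposed hippocampus at P7 (2938 to 3244, against 1741 to 2429 in controls) and lower in exposed amygdala at P75 (1923 to 2308, against 2967 to 3363 in controls), where neither C4 gene passed.

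Of 11 measured astrocyte genes, 8 rose and 1 fell in exposed hippocampus at P21, where their sum was 56430 to 66720 in exposed and 42940 to 47090 in control arrays, beside the higher C4 genes. At P75 5 rose and none fell, with sums of 66260 to 78250 in exposed and 49010 to 51730 in control hippocampus. At P14, where C4b was also higher, 8 of the 11 fell and the sum was 45110 to 49310 in exposed and 74970 to 95710 in control arrays. In amygdala at P21, where the C4 genes were lower, 1 rose and 2 fell, with sums of 71430 to 77720 in exposed and 66000 to 74690 in control arrays. In hippocampus 15.8% of all features were higher and 10.6% lower at P21, and 23.7% and 18.6% at P75. The shares were 16% and 22.2% at P14, and in amygdala 9.45% and 16% at P21.

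Other lists also separated the groups in hippocampus. The sum of 9 neuronal genes was 105000 to 116700 in exposed and 94780 to 102300 in control hippocampus at P21, and 130300 to 140200 and 89440 to 95430 at P75, but 118600 to 122200 and 145600 to 176700 at P14. The sum of 3 blood cell genes was 8571 to 10390 in exposed and 4628 to 5935 in control hippocampus at P21, and 5928 to 7828 and 3706 to 5120 at P75. In amygdala at P21, where the C4 genes were lower, the blood sum was 8321 to 10880 in exposed and 5223 to 5944 in control arrays. Choroid plexus genes, 9 measured, summed to 6220 to 7278 in exposed and 1604 to 2144 in control amygdala at P21, and to 2116 to 2499 in exposed and 3811 to 4430 in control hippocampus at P21.

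Olfactory and vomeronasal receptor genes, 1239 in all and not known for a role in these regions, were called in varying numbers. In exposed hippocampus 459 rose and 4 fell at P7, 225 rose and 10 fell at P14, 47 rose and 176 fell at P21, and 37 rose and 287 fell at P75. In exposed amygdala 3 rose and 56 fell at P7, 254 rose and 95 fell at P14, 192 rose and 20 fell at P21, and 78 rose and 32 fell at P75. The larger of these counts had the direction of the random probe except in amygdala at P14, where the probe did not pass, and at P75, where the probe was lower in exposed arrays. Of all features in hippocampus, 25.1% rose and 28.3% fell at P7, and 16% and 22.2% at P14. The shares were 15.8% and 10.6% at P21, and 23.7% and 18.6% at P75. In amygdala 5.66% rose and 2.17% fell at P7, and 16.5% and 19.3% at P14. They were 9.45% and 16% at P21, and 9.35% and 11.8% at P75. The part of all these lists in the differences of the complement genes was not tested.

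With the random probe as a covariate, none of the 7 genes passed in hippocampus at P7, P21 or P75. In those comparisons probe and group can hardly be told apart, so these fits cannot decide whether a difference holds. At P14 C4a (1.42, adjusted p = 0.0385) and C4b (1.28, adjusted p = 0.0275) passed in hippocampus and C1qb did not (0.52, adjusted p = 0.219). In amygdala the calls at P14, P21 and P75 were kept, and C1qa was also called, as higher in exposed animals, at P21 (0.84, adjusted p = 0.0186). Probe ranges of exposed and control arrays did not overlap in hippocampus at P14 (48.12 to 49.26 against 43.41 to 46.21). They were also apart in amygdala at P21 (46.16 to 47.08 against 44.94 to 46.04). At P75 they were 44.27 to 47.54 against 50.16 to 51.27. Calls kept or gained in those comparisons therefore do not show that a difference holds.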

How the data were processed

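Per the labels' protocols, RNA was hybridised with Cy3 in 1 colour. The deposited table of 78 arrays holds linear normalized intensity; its column headers name no method, while those of the per-array columns in the comparison tables name RMA, and whether RMA also made the intensities used here is not stated, and levels were not compared across regions except for the region marks. In addition the authors deposited results of 8 comparisons, with a p-value from an unpaired t-test, that value after Bonferroni correction, and an absolute fold, going by the file headers. Their 312 per-array columns match no label and were not used.

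Features were named through RefSeq (9740 features) or the comparison tables (42), while 16637 stayed unnamed. The deposited intensities were taken to log2 here with no pseudocount. Models with group as the only term were fitted with limma 3.58.1 (R 4.3.3) and eBayes to all arrays of a region, and to all 78 arrays for region by treatment; a random-sequence probe was left out of the 26419 features. Tests were two-sided, with Benjamini-Hochberg adjustment at 0.05. The number of arrays limits the precision. On simulated arrays for hippocampus at P21, over 26419 features, 70 of 100 features changed by 1 on the log2 scale and 15 of 100 changed by 0.5 were recovered, with 3 false calls. The simulation changed few features and had no shift shared by the arrays of a group. In the data 26.4% of features were called in this comparison, so these recovery and false-call figures need not hold here.

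The 7 genes, all gene lists and the splits of the P7 and P14 hippocampal arrays were chosen with earlier results of these data known. Of other complement genes, those named were called and brighter than the median feature of the region, from at most 6 per comparison by adjusted p. Likeness was Pearson's correlation over 78 arrays after subtracting region means, among genes brighter than the median. Replicate numbers did not pair exposed with control arrays of a region and age: same-numbered arrays' deviations correlated between -0.157 and 0.077. Pairing of hippocampal with amygdalar arrays was not checked. Alternatives were quantile normalization, the brighter 50% of features, trended and robust moderation, the random probe as a covariate, a replicate block, only the groups compared, the plain t-test that the file headers name, and leaving out arrays. The values of 1 other complement gene are not reported here.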

Additional observations from a re-analysis of the deposited data

Results flagged for a closer look

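On 2 of the 112 sets of 4 or 5 arrays examined, 1 array lay far from the others of its group, where chance alone sets apart about 1 set in 20. C4a on exposed amygdala array 2 at P21 read 209.3, against 116.6 to 141.7 on the other exposed arrays. Serping1 on exposed hippocampal array 1 at P21 read 268.3, against 163.4 to 188.9 on the others.

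The exposure difference depended on age in hippocampus for C1qb (limma F test, adjusted p = 0.0128), C4a (adjusted p = 0.00119) and C4b (adjusted p = 0.000587), and in amygdala for C1qb (adjusted p = 0.00912). It depended on region, given as the hippocampal minus the amygdalar log2 difference, for C3 at P7 (0.61), for C1qa (-0.84), C1qb (1.07), C4a (1.39) and C4b (1.75) at P14, for C1qb (0.96), C4a (2.51) and C4b (2.92) at P21, and for C1qb (1.78) and C4b (1.07) at P75.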

How the results depend on the processing

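The number of the 7 genes called changed by more than 1.5 times under some alternatives. With the random probe as a covariate it was 0 in hippocampus at P7 (2 as reported), P21 (2) and P75 (3), for P75 minus P7 in controls (6) and for the age F test (3), and 1 for the region difference at P21 (3) and P75 (2). All 3 region calls reported at P21 were lost with it, so the 1 call at that age was of another gene. In hippocampus at P21 2 features were called with this covariate, against 6977 as reported. The SD of the probe's intensity within groups was 0.63 in exposed and 0.324 in control arrays, beside a mean difference of -7.55. At P7 these values were 1.61, 0.381 and 8.99, and at P75 0.281, 0.667 and -7.29. Probe and group can therefore hardly be told apart in these comparisons, nor probe and age between control P75 and P7. Under this limit the covariate also turned the sign of these called log2 differences in hippocampus: at P7 C1qc became -0.39 and Serping1 -1.37, at P21 C4a became -0.33, at P75 C4a became -0.99 and C4b -0.094, and between P75 and P7 in controls C1qc became -0.20, Serping1 -2.09, C4a 2.13 and C4b 0.90. In amygdala the covariate ended no call within the region, although the probe ranges of exposed and control arrays were apart there at P21 and P75.

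The plain t-test with Bonferroni correction and a fold of at least 1.5 called 1 gene in hippocampus at P21 (C4b) and 0 in each other comparison of exposed with control arrays or of P75 with P7. With Benjamini-Hochberg adjustment it called 0 in hippocampus at P7, 1 in hippocampus at P14, 1 in amygdala at P14 (3 as reported) and 2 for P75 minus P7 in control amygdala (4). Keeping the brighter 50% of features left 3 of the 7 genes tested in amygdala, C1qa, C1qb and C1qc. It called 1 at P14, 2 at P21 (4 as reported) and 1 at P75 (2). C3 and the C4 genes were not tested there, so their calls were not put to this check. Of the genes tested at P21 only C1qb was called as reported. The other call was therefore of C1qa or C1qc, whose differences there were 0.63 and 0.03. With 4 tested over both regions it called 0 for the region difference at P7 (1) and 1 at P75. In hippocampus at P7 quantile normalization called 1 and fitting only the groups compared called 0. In hippocampus at P14 control arrays 4 and 5 only called 1. Trended and robust moderation called 2 for the age F test in amygdala (1 as reported) and 0 for the region difference at P7. Leaving out 1 array gave 0 to 4 calls in hippocampus at P7 and 1 to 2 at P14, and the causes of these changes were not tested. Leaving out arrays was not run for the F tests and region differences. No call for C4a or C4b in hippocampus at P21, for C1qb or C4b in hippocampus at P75, or for any gene in amygdala at P21 or P75 was lost by leaving out 1 array.

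Replicate numbers as a block, although they did not pair exposed with control arrays, changed the count to 3 in hippocampus at P7 (2 as reported), and to 3 at P14 (4) and 4 at P21 (3) for the region difference. Each of the 7 genes has 1 feature, so a second feature could not be tried.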
